A study of Mus musculus with 25 samples.

Results

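The 33 genes of the constitutive proteasome were followed through 7 genotype groups of mouse esophagus. They were taken by gene symbol and comprise the 7 alpha and 7 beta genes of the 20S core particle, 17 genes of the 19S regulator (6 ATPases and 11 non-ATPase subunits), the core assembly factor Pomp and the activator gene Psme4. Inducible immunoproteasome subunits were not among them. All 33 were listed in both expression tables, among 21106 genes in pups and 19942 in adults, and all 33 passed the filter on low values.

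RNA from the whole esophagus was sequenced in 2 experiments that compared a cancer-derived NRF2 mutation with loss of KEAP1, the adaptor that marks NRF2 for degradation. The L30F knock-in changes a leucine to phenylalanine at codon 30 of NRF2, in the stretch that KEAP1 holds. In pups of 7 to 10 days, wild type was compared with NRF2L30F/L30F::K5Cre mice, called L30F homozygotes here, and KEAP1flox/flox::K5Cre mice, called KEAP1-deficient, with 3 libraries each. In adults of 6 to 9 weeks, 1 week after tamoxifen at 100 µg per g body weight, wild type was compared with NRF2L30F/+::K5CreERT2 heterozygotes, NRF2L30F/L30F::K5CreERT2 homozygotes and KEAP1flox/flox::K5CreERT2 mice, with 4 libraries each. Squamous cells were targeted through the keratin 5 promoter that drove Cre, so muscle, stroma and immune cells of the organ were not the target but were sequenced with the epithelium. The labels do not say whether wild-type mice carried a Cre gene, nor that each library came from its own animal, so the p-values speak of library-to-library spread, which may be technical.

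The proteasome is the barrel-shaped protease that degrades ubiquitin-tagged proteins. Its 20S core stacks alpha rings, which form the gate, on beta rings, of which Psmb5, Psmb6 and Psmb7 encode the catalytic subunits. The 19S regulator recognises the ubiquitin chain and removes it, and its ATPases unfold the substrate and feed it into the core. NRF1 (gene Nfe2l1) is best known for raising proteasome gene transcription when the proteasome is blocked, and NRF2, a related factor, binds a similar DNA element, the antioxidant response element.

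The letters TGACNNNGC, the core of that element, were searched in the promoter windows of the members, together with GCNNNGTCA on the opposite strand. No other motif was searched. The windows come from RefSeq on GRCm38.p6 and run from 250 bases before to 50 bases after each annotated start, 300 bases in all. A window was found for 27 of the 33 members, of which 2 had 2 windows, and none for Psmb1, Psmb2, Psmb7, Psmc3, Psmd3 and Psmd7. The core was present in 5 of the 27 (18.5%), against 3781 of all 27025 genes with a window (14.0%). These members were Psmb5, Psmb6, Psmc6, Psmd12 and Psme4. A match is only a run of letters and shows neither binding nor use.

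The stretches below show those 5 matches and, for contrast, the last 80 bases before the start of Psma7, the member with the largest rise in pups and no match in its window. Each is 80 bases, read 5′ to 3′ on the strand of the gene, with the matching letters in capitals. Psmb5 is read from chr14:54617998-54618077 on the minus strand, and its match begins 47 bases before the start. Psmb6 is read from chr11:70525277-70525356 on the plus strand, with a match 9 bases before the start. Psmc6 (chr14:45329574-45329653, plus strand) and Psmd12 (chr11:107479278-107479357, plus strand) carry theirs on the opposite strand, 227 and 247 bases before the start. Psme4 (chr11:30771697-30771776, plus strand) has an opposite-strand match that begins 7 bases before the start and runs across it. Psma7 is read from chr2:180042465-180042544 on the minus strand.
Psmb5: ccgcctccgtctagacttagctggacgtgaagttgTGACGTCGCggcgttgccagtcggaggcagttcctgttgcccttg
Psmb6: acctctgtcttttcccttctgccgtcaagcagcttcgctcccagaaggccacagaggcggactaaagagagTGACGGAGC
Psmc6: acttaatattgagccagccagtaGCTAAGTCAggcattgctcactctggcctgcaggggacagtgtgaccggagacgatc
Psmd12: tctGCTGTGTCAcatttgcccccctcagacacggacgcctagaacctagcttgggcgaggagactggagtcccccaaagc
Psme4: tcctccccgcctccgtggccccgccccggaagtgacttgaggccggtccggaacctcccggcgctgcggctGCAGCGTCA
Psma7: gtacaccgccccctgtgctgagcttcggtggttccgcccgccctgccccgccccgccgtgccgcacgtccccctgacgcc

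Sequencing depth, in M reads assigned to genes, was 18.8 to 19.7 M in pups. Among adults it differed by genotype: wild-type libraries had 27.5 to 32.3 M, KEAP1-deficient ones 22.5 to 31.3 M, heterozygous ones 12.8 to 16.9 M and homozygous ones 10.9 to 11.6 M. Levels are normalised read counts, and differences are on the log2(normalised count + 1) scale with the standard error (SE) of the fit. A gene is called where limma's p was under 0.05 after Benjamini-Hochberg adjustment across the whole table. In KEAP1-deficient mice Keap1 fell by 0.46 in pups and 0.60 in adults, with no overlap with wild type. Nfe2l2, the gene of NRF2, fell by 0.67, 1.98 and 0.39 in adult heterozygotes, homozygotes and KEAP1-deficient mice, rose by 0.93 in KEAP1-deficient pups and was 0.31 (SE 0.17, adjusted p = 0.17) in L30F pups; counts per gene do not show which allele was read. Nqo1, a standard NRF2 target, rose by 7.01 and 7.28 in L30F homozygous and KEAP1-deficient pups, and by 1.95, 2.51 and 2.45 in adult heterozygotes, homozygotes and KEAP1-deficient mice. Squamous markers were present, with 0 of 12 at 0 throughout a group.

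Proteasome genes rose together in both pup genotypes. In L30F homozygous pups 32 of the 33 members rose against wild type and none fell, with a median change of 0.55 and a range of 0.21 to 1.29. In that comparison 22.0% of the 21007 genes tested were called higher and 17.1% lower, and the median over all of them was -0.03. In KEAP1-deficient pups all 33 rose, by 0.46 to 1.63 with a median of 0.80, where 26.3% of genes tested were called higher and 23.2% lower, around a median of -0.05. Each of the 33 members stood higher in every mutant pup library than in every wild-type library, a separation seen for 27.0% and 30.3% of genes tested. These 2 comparisons share the wild-type libraries. In bulk tissue, fewer cells of a type and less RNA per cell cannot be told apart.

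Adult changes were smaller. In L30F heterozygotes 20 of 33 members rose and none fell, with a median of 0.25 (-0.04 to 0.40), where 4.80% of the 19857 genes tested were called higher and 4.90% lower. In homozygotes 27 rose and none fell, with a median of 0.31 (0.08 to 0.67), against 11.8% of genes called higher and 10.4% lower. In KEAP1-deficient adults 27 rose and 1, Psmd8, fell, with a median of 0.35 (-0.21 to 0.83), against 24.1% higher and 22.7% lower. The median over all genes tested lay between -0.01 and 0.01 in these comparisons, which share the adult wild-type libraries. Members whose mutant libraries all stood above all wild-type libraries numbered 26, 26 and 30, a separation found for 7.72%, 12.7% and 25.9% of genes tested. Psmd8 was separate in the other direction in KEAP1-deficient adults, as were 24.2% of genes.

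The heterozygote count depended on single libraries. It was 5, 7 and 9 without wild-type replicate 1, 2 or 3, and 8 without heterozygote replicate 1 and again without replicate 3. Calls over all genes also fell in these fits, to 624, 1153, 968, 1388 and 1441 in that order, from 954 higher and 973 lower. The members' median stayed between 0.23 and 0.30 whichever library was left out. Members called in every fit that left out 1 library were Psma4, Psma5, Psmb1 and Psme4. When the mean log2 level of 14 striated muscle markers entered the model as a covariate, 0 of 33 members were called in heterozygotes and the median change was 0.16. In that covariate fit 123 of the 19857 genes tested were called. The muscle markers summed to 598000 to 850000 in heterozygotes and 464000 to 506000 in wild type, with no overlap. Covariate and genotype therefore cannot be fully told apart, and the part of muscle in the lost calls was not tested. With only the 2 groups in the fit 6 members were called, and 809 genes in all. Upper-quartile and total-count scaling each ended the calls of Psma6, Psmb5, Psmc6 and Psmd1.

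**Figure D1:**
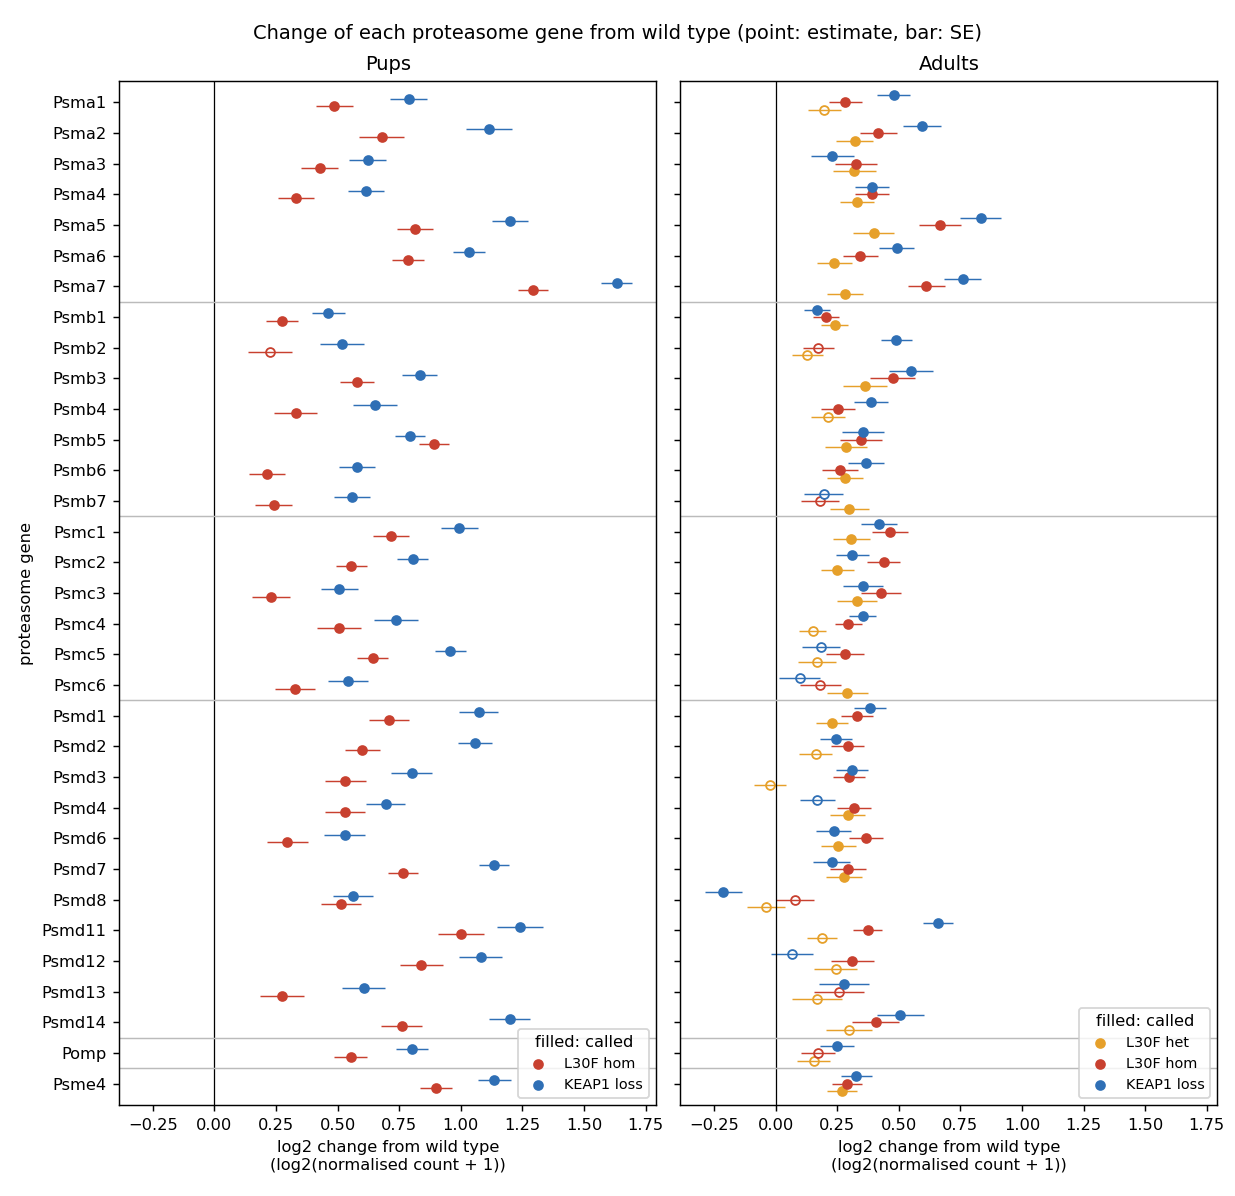
Log2 change of each of the 33 proteasome genes from wild type in pups (left) and adults (right), with bars for the SE and filled points for called genes. In pups all points lie to the right of 0 and KEAP1-deficient points lie to the right of L30F points for 32 of 33 genes, Psmb5 being the exception; in adults Psmd8 lies to the left of 0 in KEAP1-deficient mice.

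The same picture held library by library. Taking each member's log2 level minus its wild-type mean, the median over members was 0.559, 0.550 and 0.565 in the L30F homozygous pups and 0.810, 0.848 and 0.728 in the KEAP1-deficient pups. It was 0.327, 0.171, 0.271 and 0.216 in the adult heterozygotes, 0.376, 0.310, 0.189 and 0.407 in the homozygotes, and 0.391, 0.359, 0.245 and 0.358 in the KEAP1-deficient adults. Every mutant library thus stood above its wild-type libraries, which lay between -0.0343 and 0.023, and heterozygote replicate 2, homozygote replicate 3 and KEAP1-deficient replicate 3 were the lowest of their groups. The 19S median exceeded the 20S median in the pup changes (0.56 against 0.46 in L30F homozygotes, 0.80 against 0.72 in KEAP1-deficient pups), and the order was the reverse in adult heterozygotes (0.24 against 0.28), homozygotes (0.31 against 0.34) and KEAP1-deficient mice (0.28 against 0.44). That adult order did not hold in every L30F library. The 19S median was the higher in heterozygote replicate 1 (0.355 against 0.336). It was also the higher in homozygote replicate 1 (0.387 against 0.325) and replicate 3 (0.189 against 0.183). Whether core and regulator differed was not tested.

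**Figure D2:**
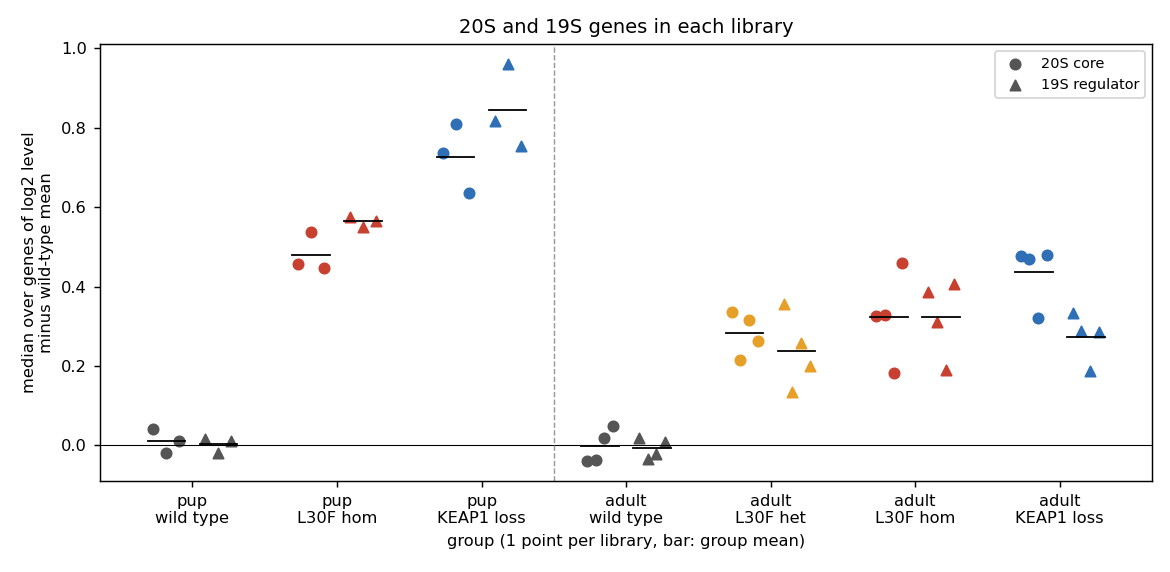
Median over the 14 core genes (circles) and the 17 regulator genes (triangles) of log2 level minus the wild-type mean, with 1 point per library and a bar at the group mean. Pup mutant libraries lie between 0.4462 and 0.961 and adult mutant libraries between 0.1337 and 0.4792, all above the wild-type libraries.

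The alpha ring gates the core. All 7 alpha genes rose in both pup genotypes (medians 0.68 and 1.03), 6 of 7 in adult heterozygotes (0.32), and all 7 in adult homozygotes (0.39) and KEAP1-deficient adults (0.49). Psma7 (ENSMUSG00000027566) led the pup changes. Its level was 779.8, 726 and 738 in the wild-type pups, 1846, 1841 and 1813 in the L30F homozygotes and 2293, 2422 and 2246 in the KEAP1-deficient pups. The 3 groups did not overlap, and Psma7 rose by 1.29 (SE 0.06, adjusted p = 1.2e-07) and 1.63 (SE 0.06, adjusted p = 1.6e-08). Adult wild-type libraries held 970.01, 806, 889.7 and 946, heterozygotes 1102, 1063, 1126 and 1092, homozygotes 1418, 1385, 1239.6 and 1477 and KEAP1-deficient mice 1636, 1481, 1391 and 1608. Each adult mutant group lay above wild type, with changes of 0.28 (SE 0.07, adjusted p = 0.027) in heterozygotes, 0.61 (SE 0.07, adjusted p = 5e-05) in homozygotes and 0.76 (SE 0.07, adjusted p = 7.2e-07) in KEAP1-deficient mice. The heterozygote call ended without wild-type replicate 2 or 3 or heterozygote replicate 1 or 3 (adjusted p up to 0.091).

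Psma5 (ENSMUSG00000068749), another alpha ring subunit, had the largest adult change. It was read at 601, 606, 618 and 670.1 in adult wild type, 905, 775, 784 and 829.9 in heterozygotes, 999, 927, 882 and 1177 in homozygotes and 1164, 1130.2, 1042 and 1111 in KEAP1-deficient mice. No mutant library overlapped wild type, and the changes were 0.40 (SE 0.08, adjusted p = 0.0093), 0.67 (SE 0.08, adjusted p = 7e-05) and 0.83 (SE 0.08, adjusted p = 9.6e-07). In pups Psma5 went from 799, 720.4 and 778 in wild type to 1343, 1272 and 1427 in L30F homozygotes and 1794, 1797 and 1687 in KEAP1-deficient mice, rises of 0.81 and 1.20.

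Psma4 had the smallest alpha ring change in both pup genotypes, and Psma1 the smallest in adult L30F mice. Psma4 was at 879.6, 877 and 893 in wild-type pups, 1101, 1071 and 1165 in L30F homozygotes and 1327, 1472 and 1273 in KEAP1-deficient pups, and rose by 0.33 (SE 0.07, adjusted p = 0.005) and 0.62 (SE 0.07, adjusted p = 6.5e-05). Adult Psma4 levels were 868, 849, 960.01 and 874 in wild type, 1150.2, 1135, 1099.7 and 1074 in heterozygotes, 1123, 1186, 1064 and 1288 in homozygotes and 1163, 1227, 1070.00 and 1201 in KEAP1-deficient mice. The 3 adult mutant groups covered nearly the same range, with rises of 0.33, 0.39 and 0.39. Psma1 stood at 946, 952, 944 and 907 in adult wild type and at 1159.9, 1069, 1009 and 1070.00 in heterozygotes, 1120.1, 1174, 1027 and 1254 in homozygotes and 1362, 1299.5, 1220.2 and 1352 in KEAP1-deficient mice. Its heterozygote change of 0.20 (SE 0.07, adjusted p = 0.074) was not called although the groups did not overlap, and it rose by 0.28 and 0.48 in the other 2 groups. In pups Psma1 rose from 807, 826 and 827 to 1134, 1263 and 1062 in L30F homozygotes, a change of 0.49, and to 1413, 1452 and 1388 in KEAP1-deficient mice, a change of 0.79.

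The beta ring moved least in L30F pups, with a median of 0.27 and 6 of 7 genes called higher, against 0.58 and 7 of 7 in KEAP1-deficient pups. In adults 5 of 7 rose in heterozygotes (median 0.28), 5 of 7 in homozygotes (0.25) and 6 of 7 in KEAP1-deficient mice (0.37). Psmb5 (ENSMUSG00000022193), which encodes the chymotrypsin-like subunit that proteasome inhibitors such as bortezomib bind, had the largest change of its ring in L30F pups. Wild-type pups had 873, 852 and 828, L30F homozygotes 1558, 1573 and 1608 and KEAP1-deficient pups 1492, 1533 and 1407 normalised counts. Both mutant groups lay far above wild type, and the L30F homozygotes were the higher of the 2, with rises of 0.89 (SE 0.06, adjusted p = 2.1e-06) and 0.79 (SE 0.06, adjusted p = 3.4e-06). Among adults Psmb5 read 993, 1065, 1172 and 1055 in wild type, 1342, 1238, 1344 and 1301 in heterozygotes, 1380.4, 1287, 1182 and 1625 in homozygotes and 1452, 1389, 1269.8 and 1370.4 in KEAP1-deficient mice. Homozygote replicate 4 was the highest of all 16 adult libraries, and the changes were 0.35 (SE 0.09, adjusted p = 0.0092) in homozygotes and 0.36 (SE 0.09, adjusted p = 0.0027) in KEAP1-deficient mice. The heterozygote change of 0.29 (SE 0.09, adjusted p = 0.045) lost its call in 12 of 16 fits that left out 1 library (adjusted p up to 0.15). These were the fits without wild-type replicate 1, 2 or 4, any heterozygote replicate, homozygote replicate 1 or 2, or KEAP1-deficient replicate 1, 2 or 4.

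The other 2 catalytic genes changed little in L30F pups. Psmb6, the caspase-like subunit, was at 1147, 1119.7 and 1119 in wild-type pups, 1329, 1352 and 1250.4 in L30F homozygotes and 1670.5, 1833 and 1566 in KEAP1-deficient pups. Psmb7, the trypsin-like subunit, was at 1285, 1282 and 1365, 1547, 1488 and 1607 and 2034, 2008 and 1759 in the same order. Both showed 3 steps with no overlap, of 0.21 (SE 0.07, adjusted p = 0.04) and 0.58 (SE 0.07, adjusted p = 0.0001) for Psmb6 and of 0.24 (SE 0.07, adjusted p = 0.027) and 0.56 (SE 0.07, adjusted p = 0.00015) for Psmb7. The L30F calls were fragile. That of Psmb6 ended without wild-type replicate 1, 2 or 3, homozygote replicate 1 or 2 or KEAP1-deficient replicate 1 (adjusted p up to 0.12), and that of Psmb7 without wild-type replicate 1 or 2 or homozygote replicate 1 or 3 (up to 0.088).

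In adults Psmb6 went from 1006, 1041, 1010.5 and 1022 in wild type to 1301, 1189, 1247 and 1219.7 in heterozygotes, 1218, 1282, 1072 and 1339 in homozygotes and 1401, 1266, 1201 and 1410.4 in KEAP1-deficient mice. Its rises were 0.26 (SE 0.07, adjusted p = 0.017) in homozygotes and 0.37 (SE 0.07, adjusted p = 0.00058) in KEAP1-deficient mice, and that of 0.28 (SE 0.07, adjusted p = 0.025) in heterozygotes ended without wild-type replicate 1 or 3 or heterozygote replicate 1 or 3 (adjusted p up to 0.079). Adult Psmb7 was 1253, 1262, 1342 and 1335 in wild type, 1649, 1467, 1687 and 1595 in heterozygotes, 1527, 1423, 1286 and 1674 in homozygotes and 1442, 1569, 1371 and 1573 in KEAP1-deficient mice. Only its heterozygote change was called, at 0.30 (SE 0.08, adjusted p = 0.026), and this ended without wild-type replicate 1, 2 or 3 or heterozygote replicate 1 or 3 (adjusted p up to 0.090). The homozygote and KEAP1-deficient changes were 0.18 (SE 0.08, adjusted p = 0.11) and 0.20 (SE 0.08, adjusted p = 0.051). Both were called under total-count scaling, the first also without homozygote replicate 3 (adjusted p = 0.034), and the second with limma-voom, with only the groups compared, and without heterozygote replicate 2, homozygote replicate 3 or 4 or KEAP1-deficient replicate 3 (adjusted p as low as 0.030). Pseudogenes of Psmb5, Psmb6 and Psmb7 are annotated in the mouse genome, and how reads shared with them were divided is not given in the sources used here.

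Psmb2 (ENSMUSG00000028837), a structural beta subunit, was the member not called in L30F pups. Wild-type pups held 799, 701 and 802, L30F homozygotes 962, 882 and 847 and KEAP1-deficient pups 1141, 1154 and 999.97. The 3 L30F libraries lay above wild type without being called, at 0.23 (SE 0.09, adjusted p = 0.071), and KEAP1-deficient pups rose by 0.52 (SE 0.09, adjusted p = 0.00086). Adult levels were 726, 691, 768 and 718 in wild type, 805, 762, 851 and 757 in heterozygotes, 841, 781, 832 and 819 in homozygotes and 1056, 1034, 931 and 1062 in KEAP1-deficient mice. The KEAP1-deficient adults stood above every other adult library, and theirs was the only adult change called, at 0.49 (SE 0.06, adjusted p = 1.1e-05), against 0.13 (SE 0.06, adjusted p = 0.21) and 0.17 (SE 0.06, adjusted p = 0.06), though the homozygote change was called under total-count scaling.

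Psmb3, also structural, had the largest beta ring change in all 3 adult mutant groups, and Psmb1 the smallest in KEAP1-deficient pups and adults. Psmb3 was at 828, 839, 837 and 902 in adult wild type, 1128, 1043, 1161 and 1051 in heterozygotes, 1200.5, 1167, 989 and 1414 in homozygotes and 1225, 1262, 1139.9 and 1365 in KEAP1-deficient mice, and rose by 0.47 (SE 0.09, adjusted p = 0.0018) and 0.55 (SE 0.09, adjusted p = 0.00011) in the last 2. The heterozygote rise of 0.36 (SE 0.09, adjusted p = 0.021) ended without wild-type replicate 1, 2 or 3 or heterozygote replicate 3 (adjusted p up to 0.071). In pups Psmb3 was 902, 893 and 907 in wild type, 1321, 1376 and 1338 in L30F homozygotes and 1594, 1737 and 1492 in KEAP1-deficient mice, rises of 0.58 and 0.83. Psmb1 was at 1366, 1290.5 and 1294, 1602, 1633 and 1542 and 1736, 1932 and 1779.6 in the same 3 pup groups, rises of 0.27 and 0.46. Adult Psmb1 stood at 1328, 1301, 1313 and 1386 in wild type, 1599, 1549, 1599.8 and 1544 in heterozygotes, 1536, 1474, 1475 and 1659.8 in homozygotes and 1508, 1555, 1427 and 1502 in KEAP1-deficient mice. All 3 adult changes were called, at 0.24, 0.20 and 0.17, and the last ended without KEAP1-deficient replicate 2 (adjusted p = 0.056).

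**Figure D3:**
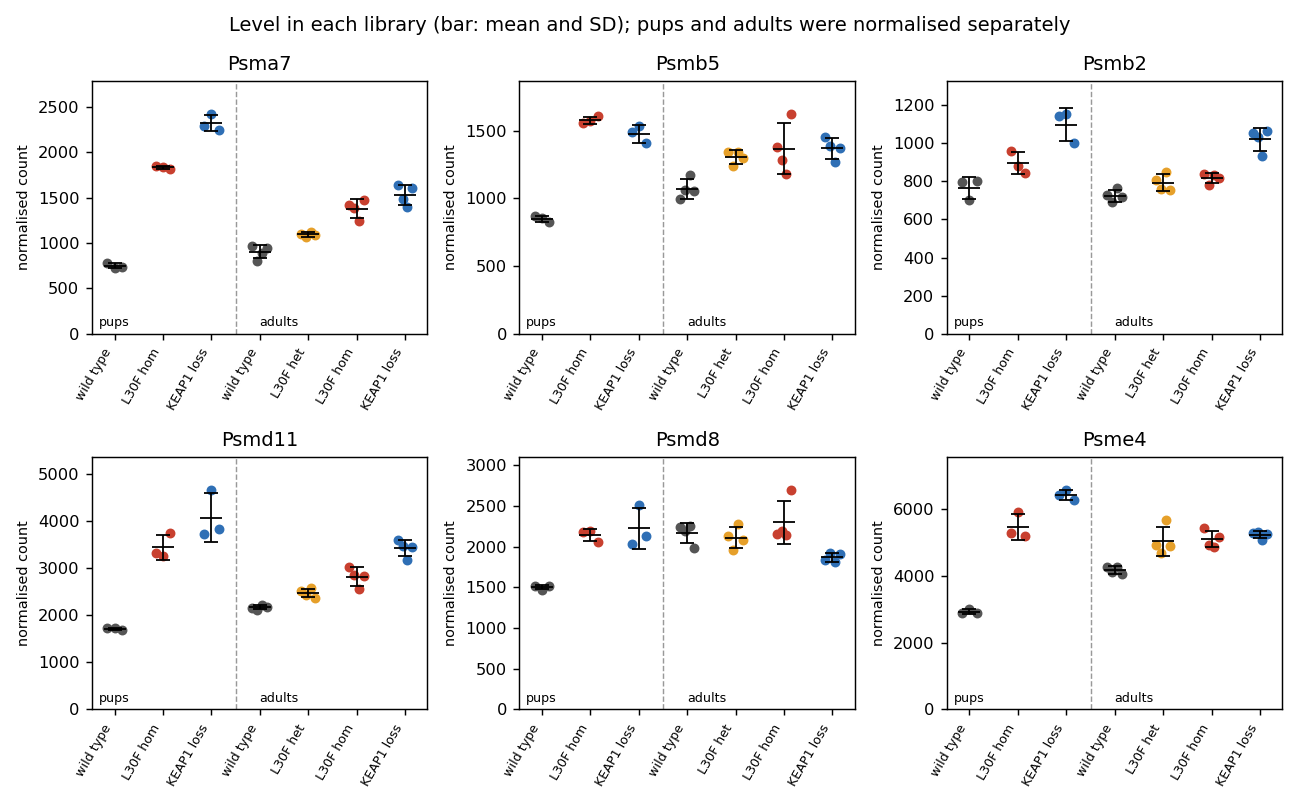
Normalised count of 6 proteasome genes in each library, with the group mean and SD; axes start at 0, and pups and adults were normalised separately. Psma7 and Psmd11 show separate wild-type and mutant groups in pups and adults, Psmb5 is higher in L30F than in the other pups, Psmb2 stands out in KEAP1-deficient mice, and adult Psmd8 is lowest in KEAP1-deficient mice.

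The 6 ATPase genes of the 19S base all rose in both pup genotypes (medians 0.53 and 0.77). In adults 4 rose in heterozygotes (0.27), 5 in homozygotes (0.36) and 4 in KEAP1-deficient mice (0.33). Psmc1 was the ATPase gene with the largest change in KEAP1-deficient pups, with 1138, 1033 and 1136 in wild-type pups, 1761, 1867 and 1801 in L30F homozygotes and 2111, 2388 and 2093 in KEAP1-deficient mice. It rose by 0.72 (SE 0.07, adjusted p = 3.9e-05) and 0.99 (SE 0.07, adjusted p = 2.3e-06). Adults had 1131, 1069, 1145 and 1146 in wild type, 1501, 1301, 1454 and 1312 in heterozygotes, 1653, 1511, 1389 and 1659.8 in homozygotes and 1526, 1440.1, 1404 and 1645 in KEAP1-deficient mice. All adult mutant libraries were above wild type, and the changes were 0.46 in homozygotes, 0.42 in KEAP1-deficient mice and 0.31 (SE 0.07, adjusted p = 0.018) in heterozygotes, the last lost without wild-type replicate 1 or 2 (adjusted p up to 0.056).

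Psmc3 was the ATPase gene with the smallest pup changes. Its pup levels were 1826, 1572 and 1757 in wild type, 1949.6, 2025 and 2065 in L30F homozygotes and 2350.00, 2629.6 and 2344 in KEAP1-deficient mice. The L30F rise of 0.23 (SE 0.08, adjusted p = 0.037) ended without wild-type replicate 2 or 3 or homozygote replicate 2 or 3 (adjusted p up to 0.15), and the KEAP1-deficient rise was 0.51 (SE 0.08, adjusted p = 0.00036). Adult Psmc3 was 1403, 1391, 1435 and 1307 in wild type, 1897, 1517, 1824 and 1744 in heterozygotes, 1981, 1922, 1632 and 1925 in homozygotes and 1891, 1835, 1575 and 1789.5 in KEAP1-deficient mice, all mutant libraries standing above wild type. It rose by 0.43 (SE 0.08, adjusted p = 0.002) in homozygotes and 0.35 (SE 0.08, adjusted p = 0.0021) in KEAP1-deficient mice, and by 0.33 (SE 0.08, adjusted p = 0.021) in heterozygotes, a call that ended without wild-type replicate 1 or heterozygote replicate 1 or 3 (adjusted p up to 0.060).

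Psmc6, another of the 6, had the smallest adult changes of the ATPases in both homozygotes and KEAP1-deficient mice. Adult libraries held 879, 835, 855 and 1017 in wild type, 1216, 1030.3, 1086 and 1054 in heterozygotes, 1104, 1018, 891 and 1055 in homozygotes and 984, 934, 902 and 1009 in KEAP1-deficient mice. Homozygote and KEAP1-deficient libraries overlapped wild type, at 0.18 (SE 0.08, adjusted p = 0.12) and 0.10 (SE 0.08, adjusted p = 0.36). The homozygote change was called without wild-type replicate 4 or homozygote replicate 3 (adjusted p as low as 0.042). Heterozygotes were called at 0.29 (SE 0.08, adjusted p = 0.036), which ended without wild-type replicate 1, 2 or 3 or heterozygote replicate 1 or 3 (adjusted p up to 0.11). Pup Psmc6 rose from 737, 810.2 and 794 to 902, 1071 and 969 in L30F homozygotes, by 0.33, and to 1145, 1182 and 1083 in KEAP1-deficient mice, by 0.54.

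The 11 non-ATPase genes, which include the scaffold, the ubiquitin receptors and the deubiquitinase, all rose in both pup genotypes, with medians of 0.60 in L30F homozygotes and 1.06 in KEAP1-deficient pups. In adults 4 of 11 rose in heterozygotes (median 0.23), 9 of 11 in homozygotes (0.31), and 8 rose and 1 fell in KEAP1-deficient mice (0.24). Psmd11 (ENSMUSG00000017428), a lid subunit, had the largest change of these genes in pups. Wild-type pups had 1719.9, 1727 and 1687, L30F homozygotes 3316, 3246 and 3736 and KEAP1-deficient pups 3714, 4659 and 3819.6 normalised counts. The mutant groups stood well above wild type and overlapped each other, with rises of 1.00 (SE 0.09, adjusted p = 1.7e-05) and 1.24 (SE 0.09, adjusted p = 2.3e-06). Adult levels were 2155, 2113, 2211 and 2177 in wild type, 2512, 2436, 2566 and 2358 in heterozygotes, 3029, 2840.4, 2543 and 2823 in homozygotes and 3586, 3465, 3171 and 3454 in KEAP1-deficient mice. Wild type and KEAP1-deficient mice lay at the 2 ends with no overlap with any other group, and the rises were 0.37 (SE 0.06, adjusted p = 0.00055) in homozygotes and 0.66 (SE 0.06, adjusted p = 3.5e-07) in KEAP1-deficient mice. The heterozygote change of 0.19 (SE 0.06, adjusted p = 0.059) was called without homozygote replicate 3 (adjusted p = 0.040).

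Psmd14, the deubiquitinase that removes the chain from a bound substrate, had 553, 626 and 646 in wild-type pups, 998, 1003 and 1088 in L30F homozygotes and 1446, 1436 and 1304 in KEAP1-deficient pups. These groups did not overlap, and the rises were 0.76 (SE 0.08, adjusted p = 5.4e-05) and 1.20 (SE 0.08, adjusted p = 1.3e-06). Adult Psmd14 read 874, 787, 776 and 812 in wild type, 1162, 936, 971 and 935 in heterozygotes, 1084, 1059.6, 925 and 1259 in homozygotes and 1252, 1133, 1056 and 1181 in KEAP1-deficient mice. It rose by 0.41 (SE 0.09, adjusted p = 0.0061) in homozygotes and 0.51 (SE 0.09, adjusted p = 0.00033) in KEAP1-deficient mice. Heterozygotes were all above wild type, replicate 1 standing apart from the other 3, and their change of 0.30 (SE 0.09, adjusted p = 0.057) was called without homozygote replicate 3 or 4 (adjusted p as low as 0.037).

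Psmd8 (ENSMUSG00000030591), also a lid subunit, was the only member called lower than wild type in any group. Adult wild-type libraries held 2242, 2193, 2249 and 1984, heterozygotes 2131, 1956, 2277 and 2078, homozygotes 2159.7, 2190.4, 2143 and 2699 and KEAP1-deficient mice 1834, 1920.1, 1814 and 1909.6. All KEAP1-deficient libraries lay below all wild-type libraries, and Psmd8 fell by 0.21 (SE 0.08, adjusted p = 0.032). That call ended without wild-type replicate 1, 2 or 3 or KEAP1-deficient replicate 1 or 3 (adjusted p up to 0.080), under total-count scaling and with the striated muscle covariate. Heterozygotes and homozygotes overlapped wild type, at -0.04 (SE 0.08, adjusted p = 0.8) and 0.08 (SE 0.08, adjusted p = 0.49), and without homozygote replicate 4 the homozygote change was 0.00. In pups the direction was the opposite. Psmd8 was 1514, 1471 and 1511 in wild type, 2175, 2195 and 2052 in L30F homozygotes and 2027, 2510.1 and 2129.5 in KEAP1-deficient mice, rises of 0.51 (SE 0.08, adjusted p = 0.00075) and 0.56 (SE 0.08, adjusted p = 0.00029).

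Psmd6, a lid subunit, had the smallest non-ATPase change in KEAP1-deficient pups. Its levels were 838, 734 and 838 in wild-type pups, 972, 1025 and 954 in L30F homozygotes and 1112, 1261 and 1105 in KEAP1-deficient pups. The L30F rise of 0.29 (SE 0.08, adjusted p = 0.018) ended without wild-type replicate 2 or homozygote replicate 2 (adjusted p up to 0.076), and KEAP1-deficient pups rose by 0.53 (SE 0.08, adjusted p = 0.00046). Adult Psmd6 was 848, 834, 874 and 917 in wild type, 1153, 954, 1049 and 996 in heterozygotes, 1073, 1192, 1062 and 1156 in homozygotes and 1092, 1020.00, 945 and 1034 in KEAP1-deficient mice. No mutant library overlapped wild type, and it rose by 0.37 (SE 0.07, adjusted p = 0.0019) in homozygotes and 0.24 (SE 0.07, adjusted p = 0.012) in KEAP1-deficient mice. The heterozygote call, at 0.25 (SE 0.07, adjusted p = 0.033), ended without wild-type replicate 1, 2 or 3 or heterozygote replicate 1 or 3 (adjusted p up to 0.10).

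Pomp (ENSMUSG00000029649), the chaperone that joins half-built cores, stood at 751, 709.8 and 770.1 in wild-type pups, 1137, 1080.3 and 1056 in L30F homozygotes and 1318, 1298 and 1272 in KEAP1-deficient pups. The groups were separate, and Pomp rose by 0.55 (SE 0.07, adjusted p = 0.0001) and 0.80 (SE 0.07, adjusted p = 4.5e-06). In adults it was 976, 936, 1000.5 and 1019.6 in wild type, 1151, 1010.2, 1119 and 1098 in heterozygotes, 1090.1, 1011, 1093 and 1243 in homozygotes and 1229, 1181, 1095 and 1176 in KEAP1-deficient mice. The first 2 mutant groups overlapped wild type, at 0.15 (SE 0.07, adjusted p = 0.17) and 0.17 (SE 0.07, adjusted p = 0.086), and the homozygote change was called without homozygote replicate 2 (adjusted p = 0.046) and under total-count scaling. KEAP1-deficient adults rose by 0.25 (SE 0.07, adjusted p = 0.0068).

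Psme4 (ENSMUSG00000040850) encodes PA200, an activator that caps the core in place of the 19S regulator. Wild-type pups held 2889.7, 2997 and 2872, L30F homozygotes 5263, 5905 and 5187 and KEAP1-deficient pups 6417, 6572 and 6263. Both rises separated the groups completely, at 0.90 (SE 0.07, adjusted p = 3e-06) and 1.14 (SE 0.07, adjusted p = 3.6e-07). Adults had 4268, 4097, 4261 and 4035 in wild type, 4906, 4681, 5670.2 and 4876 in heterozygotes, 5416, 4923, 4868 and 5169 in homozygotes and 5273, 5316, 5076 and 5246 in KEAP1-deficient mice. The 3 adult mutant groups covered overlapping ranges above wild type, with rises of 0.27 (SE 0.06, adjusted p = 0.015), 0.29 (SE 0.06, adjusted p = 0.004) and 0.33 (SE 0.06, adjusted p = 0.00042).

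The 2 pup genotypes were then compared directly. Of the 33 members, 10 were called lower in L30F homozygotes than in KEAP1-deficient pups and none higher, with a median difference of -0.28 (-0.46 to 0.10), where 2.40% of genes tested were called lower and 1.76% higher. These 10 were Psma2, Psma5, Psma7, Psmb6, Psmb7, Psmc5, Psmd1, Psmd2, Psmd7 and Psmd14. For 30 members every L30F library lay below every KEAP1-deficient library, a separation found for 16.7% of genes tested, and for 1 member, Psmb5, the reverse held (10.5% of genes). Psmd2, a base subunit, differed most: L30F homozygotes held 3892, 3859.8 and 3769 and KEAP1-deficient pups 5145, 5732 and 4950.1, a fall of 0.46 (SE 0.07, adjusted p = 0.019). Psmb5 went the other way, with L30F homozygotes above KEAP1-deficient pups by 0.10 (SE 0.06, adjusted p = 0.39) and a 95% interval of -0.04 to 0.24. Psmd8 differed by -0.05 (SE 0.08, adjusted p = 0.77), with an interval of -0.23 to 0.14.

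These direct calls were not stable. Without L30F replicate 2 or KEAP1-deficient replicate 2 the count was 0, without wild-type replicate 2, L30F replicate 1 or KEAP1-deficient replicate 1 it was 1, and without wild-type replicate 3 it was 3. Calls over all genes fell too, to 61 and 46, to 121, 164 and 166, and to 245 in that order. They had been 505 lower and 370 higher with all libraries. The median difference stayed between -0.31 and -0.23 in the fits that left out 1 library. With only the 2 groups in the fit, 1 member was called, and 185 genes in all. The count was also 1 under total-count scaling, where 867 genes were called in all and the median difference was -0.15.

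In adults the L30F homozygotes and KEAP1-deficient mice had a median difference of -0.02 over the members. Psmb2, Psmd11 and Psma1 were called lower in homozygotes and Psmd8 and Psmd12 higher, 3 and 2 of 33, where 13.5% of genes tested were called lower and 12.9% higher. Psmb2 differed by -0.32 (SE 0.06, adjusted p = 0.0017), Psmd11 by -0.28 (SE 0.06, adjusted p = 0.0026) and Psmd8 by 0.29 (SE 0.08, adjusted p = 0.01). The calls of Psma1 at -0.20 and of Psmd12 at 0.24 ended when single libraries were left out, and the count was then 3. This occurred without wild-type replicate 1, 2 or 3, homozygote replicate 1 or 2, or KEAP1-deficient replicate 2 or 4. Psmb5 showed no detectable difference, at -0.01 (SE 0.09, adjusted p = 0.95) with a 95% interval of -0.19 to 0.17. Heterozygotes were below KEAP1-deficient mice for 9 members and above for none, with a median of -0.09, where 23.2% of genes were called lower and 21.6% higher. The 9 were Psma1, Psma2, Psma5, Psma6, Psma7, Psmb2, Psmc4, Psmd3 and Psmd11, with Psma7 at -0.48 (SE 0.07, adjusted p = 7.8e-05) and Psmd11 at -0.47 (SE 0.06, adjusted p = 1.2e-05). Under total-count scaling 22 members were called lower in heterozygotes, with a median of -0.22. With the striated muscle covariate 0 members were called in either comparison. The medians against KEAP1-deficient mice then moved to -0.20 for homozygotes and -0.36 for heterozygotes. Calls over all genes fell as well. They numbered 140 for homozygotes, against 2680 lower and 2568 higher without the covariate. For heterozygotes they numbered 386, against 4601 lower and 4290 higher. The muscle markers summed to 172000 to 254000 in KEAP1-deficient mice, 431000 to 612000 in homozygotes and 598000 to 850000 in heterozygotes. Covariate and genotype therefore cannot be fully told apart in these fits, and the part of muscle in the lost calls was not tested.

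Allele dose was compared in adults. Homozygotes exceeded heterozygotes by a median of 0.10 over the 33 members. Psma7, Psmd3, Psma5 and Psmd11 were called higher and none lower, 4 of 33, where 8.07% of genes tested were called higher and 8.29% lower. Psma7 differed by 0.33 (SE 0.07, adjusted p = 0.0077). Psmd3, a lid subunit, was at 1835, 1821, 2048 and 1876 in heterozygotes and 2537, 2262, 2158 and 2505 in homozygotes with no overlap, a difference of 0.32 (SE 0.07, adjusted p = 0.0045). The calls of Psma5 and Psmd11, at 0.27 (SE 0.08, adjusted p = 0.041) and 0.18 (SE 0.06, adjusted p = 0.048), ended in 10 and 14 of the 16 fits that left out 1 library. The count was 2 without wild-type replicate 1, 2 or 3, heterozygote replicate 2, 3 or 4, homozygote replicate 1 or 4, or KEAP1-deficient replicate 2 or 4. It was 11 under total-count scaling.

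Heterozygotes were also set against the midpoint of wild type and homozygotes. No member was called by limma, 8 had an unadjusted p under 0.05, and the median deviation was 0.08. Among all genes tested, 8.97% were called either way and 24.4% had an unadjusted p under 0.05. Leaving out 1 library gave counts of 0 to 2, the 2 arising without homozygote replicate 4 and 1 without wild-type replicate 4, heterozygote replicate 2 or homozygote replicate 3.

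Changes in pups were larger than those in adults. For the L30F homozygous effect, 29 of 33 members had the smaller change in adults, and the adult effect minus the pup effect was called below 0 for 13 and above 0 for none, with a median of -0.21. Of the 19031 genes tested in both experiments 19.9% were called below 0 and 13.6% above. For KEAP1 loss all 33 members had the smaller adult change, 28 were called below 0 and none above, and the median difference was -0.49, where 26.5% of genes were called below 0 and 20.6% above. Psma7 differed by -0.68 (SE 0.10, adjusted p = 3.3e-06) for L30F and -0.87 (SE 0.10, adjusted p = 3.2e-08) for KEAP1 loss. Psme4 differed by -0.61 (SE 0.09, adjusted p = 9.7e-06) and -0.81 (SE 0.09, adjusted p = 7.5e-08), and Psmb5 by -0.55 (SE 0.11, adjusted p = 0.0002) and -0.44 (SE 0.11, adjusted p = 0.0012). The smallest difference for KEAP1 loss was that of Psmb2, at -0.03 (SE 0.11, adjusted p = 0.87) with a 95% interval of -0.26 to 0.20. The order of the members was partly shared. Across the 33 genes, which are not independent replicates, pup and adult changes had a Pearson r of 0.528 (Spearman 0.502) for L30F and 0.554 (0.462) for KEAP1 loss, against 0.222 and 0.154 (Pearson) over all 19031 genes.

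**Figure D4:**
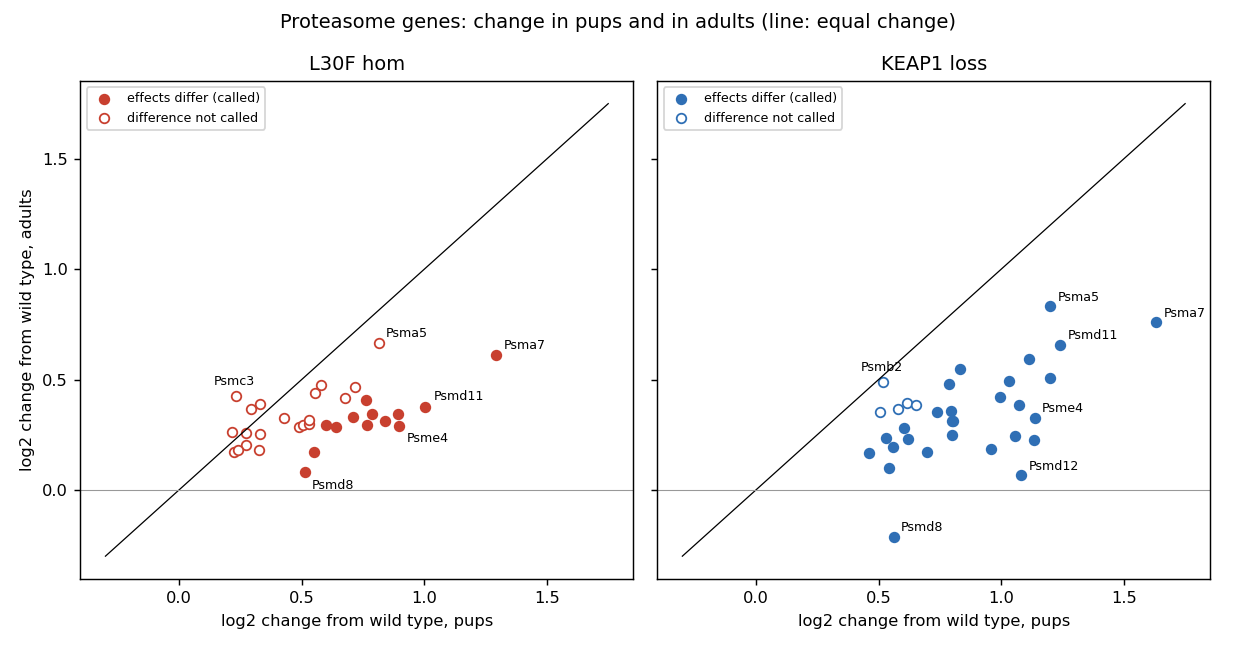
Log2 change from wild type in adults (vertical axis) against pups (horizontal axis) for the 33 genes under L30F homozygosity (left) and KEAP1 loss (right); filled points mark genes whose 2 effects differ by the test, and the line marks equal changes. With KEAP1 loss all 33 points lie below the line, and with L30F 29 of 33 do.

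Age, Cre type, tamoxifen and time since recombination all differ between the 2 separately normalised experiments, so they cannot be told apart. Scaling bears on this comparison. Under total-count scaling the median difference was 0.03 for L30F and -0.06 for KEAP1 loss, with 5 members below and 4 above 0 in the first and 8 below and 2 above in the second. In the KEAP1 comparison 17 members were called under upper-quartile scaling and 13 with the striated muscle covariate, and Psmb5 lost its call in each of these settings.

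The scaling of the pup tables affected the size of all pup changes. The deposited size factors put the median of all genes near 0. Scaling to total counts or to the upper quartile moved that median by -0.21 and -0.20 in L30F homozygous pups and by -0.33 and -0.27 in KEAP1-deficient pups. The members' medians were then 0.34 and 0.35 in L30F homozygotes and 0.46 and 0.52 in KEAP1-deficient pups. A scaling moves all genes by about the same amount, so the distance between the members and all genes is fixed by construction and shows no stability. In L30F homozygotes 23 of 33 were then called under both scalings, the lost calls being Psma4, Psmb1, Psmb4, Psmb6, Psmb7, Psmc3, Psmc6, Psmd6 and Psmd13. With limma-voom or trimmed-mean (TMM) scaling 30 were called, without Psmb6 and Psmc3. In KEAP1-deficient pups 28 were called under total-count scaling, without Psmb1, Psmb2, Psmc3, Psmc6 and Psmd6, and 33 under upper-quartile scaling. Among all genes called in L30F pups, 56.3% were higher with the deposited factors and 33.7% under total-count scaling. In KEAP1-deficient pups the 2 shares were 53.1% and 27.2%.

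**Figure D5:**
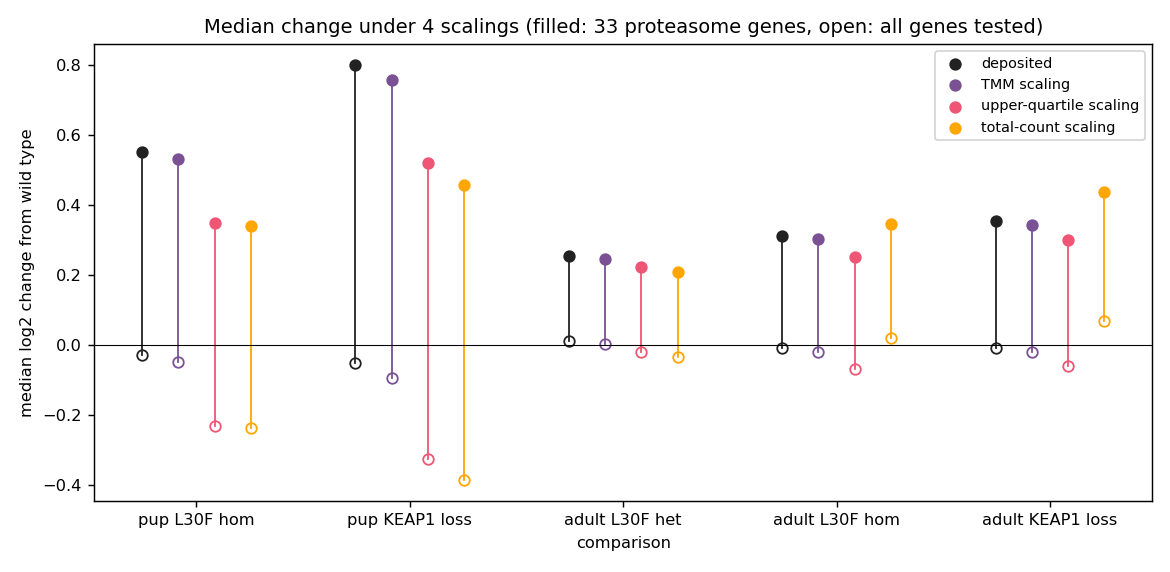
Median log2 change from wild type over the 33 proteasome genes (filled) and over all genes tested (open) under 4 scalings, for each of the 5 mutant groups. In pups total-count and upper-quartile scaling lower both medians together, as any scaling must, to between 0.34 and 0.52 for the members.

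Cell-type markers moved with genotype beside these changes. In KEAP1-deficient adults 11 of 14 striated muscle markers were lower and 2 higher than in wild type, with a summed level of 172000 to 254000 normalised counts against 464000 to 506000, and 8 of 9 leukocyte markers were higher (42100 to 52900 against 6010 to 10900). In homozygotes 7 of 9 leukocyte markers were higher (10800 to 30400). Heterozygotes had 7 of 14 striated muscle markers higher (598000 to 850000). Over all genes tested, 24.1% were called higher and 22.7% lower in KEAP1-deficient adults. The shares called higher were 11.8% in homozygotes and 4.80% in heterozygotes. The 6 suprabasal squamous markers summed to 926000 to 1290000 in adult wild type, 571000 to 871000 in heterozygotes, 459000 to 659000 in homozygotes and 112000 to 161000 in KEAP1-deficient mice, while the 6 basal ones summed to 69000 to 88900, 60300 to 102000, 90000 to 131000 and 180000 to 210000. Adult fibroblast sums were 146000 to 178000 in wild type and 330000 to 441000 in KEAP1-deficient mice. Suprabasal sums in pups went from 118000 to 126000 in wild type to 195000 to 227000 in L30F homozygotes and 275000 to 299000 in KEAP1-deficient mice. Also in pups, 7 of 8 fibroblast markers were lower in both mutants, with sums of 177000 to 247000 in L30F homozygotes and 108000 to 207000 in KEAP1-deficient mice against 494000 to 532000 in wild type. Of all genes tested, 17.1% were called lower in L30F homozygous pups and 23.2% in KEAP1-deficient pups. No marker was at 0 throughout a group. With the striated muscle covariate 26 members were called higher in L30F pups and all 33 in KEAP1-deficient pups, 23 in adult homozygotes, and 19 in KEAP1-deficient adults, where the median was 0.52. How many of all genes were called in these fits is not given here, so these counts stand without their background. The calls the covariate ended were Psmb4, Psmb6, Psmb7, Psmc3, Psmd6 and Psmd13 in L30F pups and Psma3, Psmb4, Psmb6 and Psmd12 in adult homozygotes. In KEAP1-deficient adults they were Psmb1, Psmc2, Psmd2, Psmd3, Psmd7, Psmd8, Psmd13, Pomp and Psme4. Muscle sums did not overlap wild type in KEAP1-deficient adults, nor in KEAP1-deficient pups (397000 to 462000 against 344000 to 375000). Covariate and genotype therefore cannot be fully told apart there. The part of muscle or of the other cell types in the proteasome changes was not tested.

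Other genes of the ubiquitin and proteasome pathway were read in lists by function, beside 22.0% and 26.3% of all genes called higher in L30F and KEAP1-deficient pups and 4.80%, 11.8% and 24.1% in the 3 adult groups. Among 7 assembly chaperones, 1 rose and 1 fell in L30F pups, and 3 rose and 1 fell in KEAP1-deficient pups. Psmd5, a chaperone of the 19S base, had 334, 350.4 and 369 in wild-type pups, 717, 709 and 859 in L30F homozygotes and 1054, 1045 and 1017 in KEAP1-deficient pups, rises of 1.11 (SE 0.09, adjusted p = 5.8e-06) and 1.56 (SE 0.09, adjusted p = 3.1e-07). Adult Psmd5 was 438, 456, 455 and 421 in wild type, 411, 486, 483 and 528 in heterozygotes, 696, 665, 755 and 685 in homozygotes and 688, 645, 683 and 629.5 in KEAP1-deficient mice. Heterozygotes overlapped wild type, while homozygotes and KEAP1-deficient mice rose by 0.66 (SE 0.08, adjusted p = 3.2e-05) and 0.58 (SE 0.08, adjusted p = 1.4e-05). Psmg4, a chaperone of the alpha ring, fell in both pup genotypes, by 0.57 (SE 0.15, adjusted p = 0.013) and 0.64 (SE 0.15, adjusted p = 0.0053), from 97.9, 109 and 101 to 77.7, 68.01 and 61.4 and 65.1, 68.8 and 62.6. The L30F call ended in 1 of 9 fits that left out a library (adjusted p = 0.054). In adults 0, 1 and 3 of the 7 chaperones rose in heterozygotes, homozygotes and KEAP1-deficient mice, and none fell. In the last group the calls of Psmg1 and Psmg3 ended in 5 and 13 of 16 fits that left out a library.

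Among 6 further 19S subunits and bound enzymes, 3 rose in L30F pups and all 6 in KEAP1-deficient pups, with none lower. Adrm1, a ubiquitin receptor, rose by 0.79 (SE 0.07, adjusted p = 1.1e-05) and 1.04 (SE 0.07, adjusted p = 9.4e-07) in pups and was not called in adults. Usp14, a deubiquitinase that docks on the base, rose by 0.60 and 0.88 in pups and by 0.32 and 0.43 in adult homozygotes and KEAP1-deficient mice. Of 3 other regulators, the activator gene Psme3 rose by 0.65 and 0.96 in pups. Ecpas, an adaptor of the assembled proteasome, rose by 0.97 (SE 0.07, adjusted p = 1.9e-06) and 0.92 (SE 0.07, adjusted p = 1.8e-06) in pups and by 0.33 (SE 0.08, adjusted p = 0.0073) in adult homozygotes, and was -0.11 (SE 0.08, adjusted p = 0.27) in KEAP1-deficient adults.

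The genes that activate NRF1 were read as a list of 6. In L30F pups 4 rose, and in KEAP1-deficient pups all 6. In adult heterozygotes 2 rose and none fell, in homozygotes 1 rose and 1 fell, and in KEAP1-deficient adults, where 22.7% of all genes were called lower, 3 rose and 3 fell. The fall in homozygotes was that of Ddi2, the protease that cleaves NRF1, at -0.30, and its call ended without wild-type replicate 3 (adjusted p = 0.053). Nfe2l1 itself was 4312, 4809.9 and 4645 in wild-type pups, 5221, 4789 and 5634 in L30F homozygotes and 6098, 6547 and 6686 in KEAP1-deficient pups, and only the last was called, at 0.49 (SE 0.08, adjusted p = 0.00049). In adults Nfe2l1 was 8418, 9704, 9724 and 8697 in wild type, 10576, 11029, 11729 and 11145 in heterozygotes, 10021, 11244, 9107 and 10866 in homozygotes and 7095, 6706, 5835 and 6699 in KEAP1-deficient mice. The KEAP1-deficient libraries were below all others, and Nfe2l1 fell by 0.47 (SE 0.08, adjusted p = 0.00016) in them. Heterozygotes were above wild type by 0.29 (SE 0.08, adjusted p = 0.036), a call that ended without wild-type replicate 1, 3 or 4 or heterozygote replicate 2, 3 or 4 (adjusted p up to 0.13). Vcp, the segregase that extracts NRF1 from the membrane, rose by 0.70 (SE 0.06, adjusted p = 1e-05) and 1.00 (SE 0.06, adjusted p = 4.5e-07) in pups and by 0.30 and 0.38 in adult homozygotes and KEAP1-deficient mice.

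Immunoproteasome genes, which replace catalytic subunits in immune cells and under interferon, were read with the 2 genes of their activator. Of these 5, none rose in L30F pups, 1 in KEAP1-deficient pups, none in adult heterozygotes, 2 in homozygotes and 4 in KEAP1-deficient adults. Psmb10 was 101, 103 and 117 in wild-type pups and 70.7, 31.5 and 43.01 in L30F homozygotes, a fall of 1.21 (SE 0.28, adjusted p = 0.0063). In adults Psmb10 was 92.1, 122, 112 and 92.8 in wild type and 208, 232, 206 and 273 in KEAP1-deficient mice, a rise of 1.13 (SE 0.17, adjusted p = 5.3e-05). Psmb9 was 26.4, 23.2, 32.98 and 27.6 in adult wild type and 86.8, 96.7, 113 and 111 in KEAP1-deficient mice, a rise of 1.85 (SE 0.24, adjusted p = 1.3e-05). Psme1 and Psme2 rose there by 0.61 and 0.72; a near-identical copy, Psme2b, could share reads with the latter. Psmb8 was listed at 0 in some libraries of 5 of the 7 groups and was not called in any comparison with wild type. Leukocytes express these genes strongly, and 8 of 9 leukocyte markers were higher in the same KEAP1-deficient adults, and their part in this rise was not tested.

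Genes of ubiquitin and its shuttles were read as a list of 9, of which 5 rose in L30F pups and 6 in KEAP1-deficient pups with none lower. Rad23b, which carries tagged proteins to the proteasome, rose by 0.83 (SE 0.06, adjusted p = 4.5e-06) and 1.20 (SE 0.06, adjusted p = 1.9e-07) in pups and by 0.37 (SE 0.08, adjusted p = 0.0032) and 0.53 (SE 0.08, adjusted p = 3.3e-05) in adult homozygotes and KEAP1-deficient mice. Sqstm1, a known NRF2 target and autophagy receptor, rose by 0.85 and 1.10 in pups and was 0.15 (SE 0.10, adjusted p = 0.32) and 0.16 (SE 0.10, adjusted p = 0.21) in the same adults. For scale, the 8 NRF2 targets listed for reference had median changes of 5.12 and 5.34 in the 2 pup genotypes and 1.67, 2.42 and 2.35 in adult heterozygotes, homozygotes and KEAP1-deficient mice. Their counts called were 8, 8, 5, 7 and 7 of 8.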

How the data were processed

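Whole-esophagus total RNA of 25 libraries was sequenced after directional library preparation, per the labels. Per the submitters' processing notes, reads were quantified with Salmon against GRCm39, with no version stated there. The deposited values, 1 table per experiment, are log2 values that step as log2(n + 4), n being reads divided by the library's size factor. Among values below 1000 reads, 100% came within 0.1 of a whole number. The 2 tables were normalised separately.

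Values were converted to normalised counts and tested on log2(value + 1), which understates the change of low genes, with limma (3.58.1, statmod 1.5.0, R 4.3.3, trend and robust). A gene needed a value of 1 or more in 3 pup or 4 adult libraries, and all groups of an experiment shared 1 fit without a replicate term. Benjamini-Hochberg adjustment ran across the whole table. The adult effect minus the pup effect was tested as the difference over its SE with Welch-Satterthwaite degrees of freedom. The fit was tested on simulated data.

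Values in every library are given for the catalytic genes, Pomp, Psme4, any member called lower than wild type, and in each role the members with the largest and the smallest change in adult homozygotes and in KEAP1-deficient pups. Psmd2 and Psmd3 were added after their values were seen. Other members are named where they make up a count. The members and gene lists were chosen with earlier results of these data known. Alternatives were other scalings, offsets and filters, limma-voom on recovered reads, a striated muscle covariate, a replicate block, only the groups compared, and leaving out each library. Their use on single genes in the adult-minus-pup and midpoint comparisons was chosen after seeing the data.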

Additional observations from a re-analysis of the deposited data

Results flagged for a closer look

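In 4 of 80 groups of 4 libraries checked for the named genes, 1 library stood far from the other 3 by Dixon's test, which flags about 1 in 20 groups by chance. Psmb3 was at 902 in adult wild-type replicate 4, the next library being at 838.8. Psmc3 was at 1633 in adult homozygote replicate 3, the next at 1922. Psmd8 was at 2699 in adult homozygote replicate 4, the next at 2190. Psmd14 was at 1162 in adult heterozygote replicate 1, the next at 971.3.

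The effect of a genotype differed between adults and pups for several named members, by the test of the difference itself with an adjusted p under 0.05 over 19031 genes. For L30F homozygosity the adult effect minus the pup effect was -0.68 for Psma7, -0.63 for Psmd11, -0.61 for Psme4, -0.55 for Psmb5, -0.43 for Psmd8, -0.38 for Pomp and -0.35 for Psmd14. The last lost its call without pup wild-type replicate 1, pup homozygote replicate 3, adult wild-type replicate 1 or adult homozygote replicate 3 (adjusted p up to 0.085).

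For KEAP1 loss it was -0.87 for Psma7, -0.37 for Psma5 and -0.31 for Psma1 in the alpha ring. In the beta ring it was -0.44 for Psmb5, -0.36 for Psmb7, -0.29 for Psmb1 and -0.28 for Psmb3. Among ATPase genes it was -0.57 for Psmc1 and -0.44 for Psmc6. Among non-ATPase genes it was -0.77 for Psmd8, -0.69 for Psmd14, -0.58 for Psmd11 and -0.29 for Psmd6. It was -0.81 for Psme4 and -0.55 for Pomp. Psmb3 lost its call in 12 fits that left out 1 library of the groups compared, namely each pup and adult wild-type library, pup KEAP1-deficient replicate 1 or 2 and adult KEAP1-deficient replicate 1, 2 or 3 (adjusted p up to 0.11). Psmd6 lost its call without pup wild-type replicate 2, pup KEAP1-deficient replicate 2, adult wild-type replicate 4 or adult KEAP1-deficient replicate 3 (adjusted p up to 0.11). Under total-count scaling the KEAP1 difference was no longer called for 12 of these 15 members, all but Psma7, Psmd8 and Psme4, and it changed sign for Psma1, Psma5, Psmb1, Psmb3, Psmb7 and Psmd6. Psma1, Psma5, Psmb1, Psmb3, Psmb5, Psmb7, Psmc6 and Psmd6 also lost it under upper-quartile scaling and with the striated muscle covariate, and Psmc1 and Psmd14 with the covariate. For L30F, total-count scaling ended the calls of Pomp, Psmd8 and Psmd14, and upper-quartile scaling that of Psmd14.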

How the results depend on the processing

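The other median changes and counts kept their direction, and counts stayed within 1.5 times, under the other offsets, the absence of a filter and the other settings not named here. The count-based tests edgeR and DESeq2 were planned but not run, a choice made because the deposited unit is log2. Whole reads could be recovered from these values, and limma-voom was run on them instead. Under upper-quartile scaling the members' median was 0.35 in L30F pups, 0.52 in KEAP1-deficient pups and -0.20 between them (6 called), and 2 were called between adult homozygotes and heterozygotes. The adult-minus-pup medians were then -0.066 for L30F and -0.26 for KEAP1 loss (17 called). Under total-count scaling the medians were 0.34, 0.46 and -0.15 (1 called) in pups, 0.44 in KEAP1-deficient adults, 0.18 for homozygotes against heterozygotes (11 called), -0.22 for heterozygotes against KEAP1-deficient mice (22 called), and 1 member departed from the midpoint. The adult-minus-pup medians were then 0.033, a reversal, for L30F and -0.064 for KEAP1 loss (10 called). Reversed there were Psma1 at 0.12, Psma5 at 0.058, Psmb1 at 0.13, Psmb3 at 0.14, Psmb7 at 0.062 and Psmd6 at 0.13, and Ube3c in KEAP1-deficient pups at -0.050. With limma-voom the KEAP1-deficient pup median was 0.76 and 2 members were called for homozygotes against heterozygotes, and with TMM scaling the former was also 0.76. With the striated muscle covariate it was 0.76 as well, and adult medians were 0.16 in heterozygotes (0 called), 0.52 in KEAP1-deficient mice, -0.20 for homozygotes (0 called) and -0.36 for heterozygotes (0 called) against them. Over all genes 123, 140 and 386 were called in the comparisons with 0 members called, in that order. Muscle marker sums differed by genotype without overlap in these comparisons, so covariate and genotype cannot be fully told apart there. With this covariate the KEAP1 adult-minus-pup median was -0.24 (13 called), and Psma1 at 0.023, Psmb3 at 9e-04 and Psmd6 at 0.090 changed sign. With only the groups compared, 1 member was called between pup genotypes, 6 in heterozygotes and 2 for homozygotes against heterozygotes. Replicate numbers did not clearly pair the libraries, though this check cannot exclude a pairing. Same-numbered libraries' deviations correlated by -0.1 to 0.22 in pups and -0.07 to 0.1 in adults. Other pairs correlated by -0.12 to 0.1 and -0.14 to 0.16. In pups 5 of 9 libraries, and in adults 6 of 16, correlated best with their own number. With a replicate block 2 members were called between pup genotypes, Psma3 and Psmd8 lost their calls in KEAP1-deficient adults, Psmc3 in L30F pups and Psma6 and Psmb5 in heterozygotes, where Psmd14 gained one, and the other counts were within 1.5 times.

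Leaving out 1 library gave 0 to 9 called and medians of -0.31 to -0.23 between pup genotypes, 5 to 23 called in heterozygotes, 2 to 4 for homozygotes against heterozygotes and 0 to 2 for the midpoint. For adult homozygotes against KEAP1-deficient mice 3 to 6 were called, with medians of -0.059 to 0.028; these reversed to 4e-04 without homozygote replicate 2 and 0.028 without replicate 3, where 5 were called with the balance of directions reversed. Calls over all genes fell with the lowest member counts, to 61 and 46 between pup genotypes and 624 in heterozygotes. Psmd8 in homozygotes ranged from 0.00 to 0.11, the 0.00 arising without replicate 4. Scaling also moved the share of all calls that were higher: under total-count scaling from 49.5% to 37.4% in heterozygotes, 49.3% to 66.8% for homozygotes against heterozygotes, 48.3% to 35.2% for heterozygotes against KEAP1-deficient mice, 56% to 37.3% for the midpoint, 42.3% to 87.2% between pup genotypes, 40.5% to 65.5% for the L30F and 43.7% to 72.6% for the KEAP1 adult-minus-pup difference, and under upper-quartile scaling from 53.1% to 39.7% in adult homozygotes. Depth was lowest in adult homozygotes, at 10.9 to 11.6 M reads.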

Other observations

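Over the 37 pathway genes outside the members and the NRF2 targets, 16 rose and 2 fell in L30F pups. In KEAP1-deficient pups 25 rose and 2 fell, and the median changes were 0.24 and 0.42. Among all genes tested 22.0% were called higher and 17.1% lower in L30F pups, and 26.3% and 23.2% in KEAP1-deficient pups. Adult shares over all genes were 4.80% higher and 4.90% lower in heterozygotes and 11.8% and 10.4% in homozygotes. They were 24.1% and 22.7% in KEAP1-deficient adults. In adults 4 rose and none fell in heterozygotes, 9 rose and 2 fell in homozygotes, and 15 rose and 5 fell in KEAP1-deficient mice, with medians of 0.12, 0.19 and 0.22. In heterozygotes 3 of the 4, Usp14, Sqstm1 and Nfe2l1, lost their calls in 13, 11 and 6 of 16 fits that left out a library (adjusted p up to 0.17). Of the core genes specific to germ line or thymus, Psma8 was not listed. Psmb11, a thymus subunit gene, was 1.38 (SE 0.51, adjusted p = 0.046) lower in KEAP1-deficient pups. Its levels were very low, at 9.784 to 12.84 normalised counts in wild-type pups and 3.24 to 4.267 in KEAP1-deficient pups. The call ended in 7 of 9 fits that left out a library (adjusted p up to 0.13).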
